A study of Mus musculus with 4 samples.

Results

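The genes described here are 10 mouse genes of selenium and glutathione redox metabolism: Selenop, Gpx1, Gpx2, Gpx3, Gpx4, Txnrd1, Txnrd2, Selenow, Selenof and Msrb1. They were chosen by name, with earlier results of the same arrays known, in which Selenop was among the genes with the highest day 6 level relative to day 4; the values below are therefore a description and carry no test. The platform annotation gave them 18 of the 45101 probe sets, and they make up 10 of the 18193 genes with a probe set of their own. Expression was measured in mouse intestinal organoids, cultures of intestinal epithelium grown in a matrix gel, on 1 Affymetrix array for each of 4 groups: Tacc3 fl/fl at day 6, Tacc3 wt/wt at day 6, Tacc3 fl/fl at day 4 and Tacc3 wt/wt at day 4. All 4 cultures received 4-hydroxytamoxifen (4OHT), which per the series' design text recombined Apc and Tacc3. By their names, wt/wt cultures carried no floxed Tacc3, so its recombination applies to the fl/fl cultures only. Tacc3 encodes a mitotic spindle protein and Apc the tumour suppressor that limits beta-catenin. Per the sample descriptions, cultures were normal at day 4 and lacked Apc at day 6, so the Apc state of each array stays unclear from the labels. The sources used here give neither the Cre driver, nor how many animals or lines stand behind a culture, nor the age of the animals.

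Selenoproteins carry selenocysteine, an amino acid with selenium in place of the sulfur of cysteine, which ribosomes insert at a UGA codon with the help of dedicated factors. Most of those with a known function are oxidoreductases: glutathione peroxidases reduce hydrogen peroxide and lipid hydroperoxides with glutathione, and thioredoxin reductases keep thioredoxin reduced with NADPH. Selenop is the secreted protein that carries selenium between tissues, and Gpx2 is the glutathione peroxidase typical of the gut epithelium.

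Each group is 1 array, so differences could not be set against a replicate spread and no p-value was computed. Intensities are the deposited linear values. Differences are of log2(intensity + 16), which understates those of dim probe sets, and a difference of at least 2-fold (1 on this scale) was counted. Each gene is represented by its brightest probe set, and all 10 genes passed the filter on dim genes (a mean at or above the median of all probe sets, an intensity of 16.9), as did 16 of the 18 probe sets. The 5' to 3' intensity ratio of the Actb control probe sets, a sign of RNA or cRNA length, was 0.261 in fl/fl and 0.180 in wt/wt organoids at day 6, against 0.0627 in fl/fl and 0.0610 in wt/wt organoids at day 4. For Gapdh it came to 0.524 and 0.411 at day 6, against 0.142 and 0.208 at day 4, in the same order of genotypes. These ratios move with the day in every day difference below, and their part in the results was not tested.

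The promoters of 3 members are shown because the results turn on these members. Selenop and Selenof were the only members 2-fold higher at day 6 in both genotypes, and the probe sets of Txnrd1 disagreed. The probe sets of Gpx4 disagreed as well, and its promoters are not shown. Each window runs from 250 bases before to 50 bases after an annotated start, 5′ to 3′ on the gene's strand, from RefSeq on GRCm38.p6. Capitals mark matches, on either strand, to 5 motifs. TGACNNNGC is the core of the antioxidant response element, CTTTGAT is a core bound by TCF/LEF factors, CTTTGAA is a second such core, TATAAA is the TATA box, and CCAAT is the box named after its letters.
Selenop, chr15:3270727-3271026, plus strand: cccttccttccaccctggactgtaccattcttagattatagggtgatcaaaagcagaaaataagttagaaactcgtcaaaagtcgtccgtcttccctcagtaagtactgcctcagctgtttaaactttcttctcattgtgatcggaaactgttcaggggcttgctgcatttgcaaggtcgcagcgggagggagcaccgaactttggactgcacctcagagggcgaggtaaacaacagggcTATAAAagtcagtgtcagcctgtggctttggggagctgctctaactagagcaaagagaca
Selenof, chr3:144570177-144570476, plus strand: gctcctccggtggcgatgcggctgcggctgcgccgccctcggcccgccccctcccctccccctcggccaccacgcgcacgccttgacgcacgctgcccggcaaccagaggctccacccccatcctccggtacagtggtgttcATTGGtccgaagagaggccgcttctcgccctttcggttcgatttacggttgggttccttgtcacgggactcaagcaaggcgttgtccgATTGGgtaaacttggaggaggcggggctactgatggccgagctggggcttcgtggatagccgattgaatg
Txnrd1, chr10:82858956-82859255, plus strand: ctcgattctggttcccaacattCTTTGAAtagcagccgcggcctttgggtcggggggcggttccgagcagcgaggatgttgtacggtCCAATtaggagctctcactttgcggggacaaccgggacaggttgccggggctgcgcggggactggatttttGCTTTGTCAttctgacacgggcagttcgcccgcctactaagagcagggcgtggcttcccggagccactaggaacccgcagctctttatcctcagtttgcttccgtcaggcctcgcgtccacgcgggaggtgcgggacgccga

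The Selenop window held TATAAA from 10 bases before the start, a match found in 13.6% of the 32851 promoter windows of the table without chromosome 18. Its other annotated windows, which begin at 3270517 and 3270561 and overlap this one, held none of these motifs. The Selenof window held CCAAT on the minus strand at 2 places, from 108 and 20 bases before the start, and 37.4% of windows held that motif. The Txnrd1 window held the antioxidant response element core on the minus strand from 92 bases before the start (12.4% of windows), CTTTGAA from 228 bases before it (5.14%) and CCAAT from 163 bases before it. None of these matches overlaps another. The other Txnrd1 windows, which begin at 82833701 and 82860091, held none of the motifs. CTTTGAT, found in 3.73% of windows, was in no window of the 10 members. The shares are of single windows, while Selenop and Txnrd1 have several windows each, of which only the window shown held a match. A match describes the letters of a window and not a bound site.

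**Figure D1:**
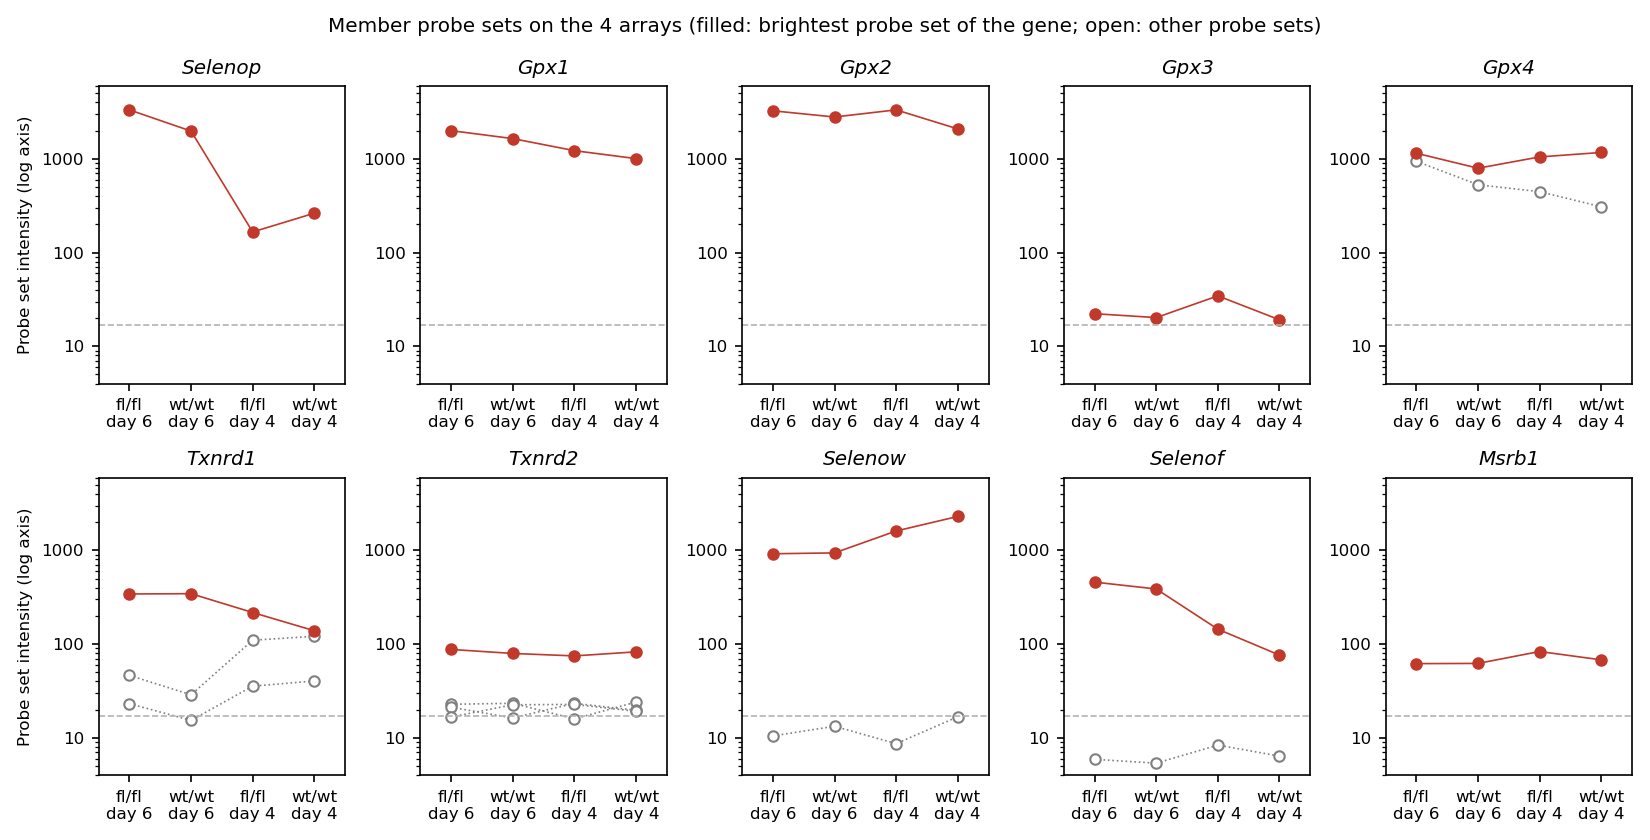
Intensity of each member probe set (log axis) on the 4 arrays, with the brightest probe set of a gene filled, the others open, and a dashed line at the filter's intensity of 16.9. Selenop reads 3336 and 1980 at day 6 and 166 and 263 at day 4, while Gpx2 stays between 2090 and 3337 on all arrays; levels of different probe sets cannot be set against each other.

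The comparison of day 6 with day 4 addresses what differed between the days within each genotype. Selenop and Selenof were far higher at day 6 in both genotypes, Gpx1 was modestly higher, Selenow was lower on its brightest probe set, and Gpx2, Gpx3, Txnrd2 and Msrb1 stayed within 2-fold. Of the 10 members, 2 were 2-fold higher at day 6 in fl/fl organoids, Selenop and Selenof, where 12.2% of the 11392 genes above the filter were. In wt/wt organoids 3 were, Selenop, Selenof and Txnrd1, where 18.3% of genes were. In both genotypes 2 were, where 9.37% of genes were. No member was 2-fold lower at day 6 in fl/fl organoids (2.9% of genes), and Selenow was in wt/wt organoids (2.97% of genes). No member was 2-fold lower in both genotypes, where 1.35% of genes were. Counted by sign alone, 4 members (Selenop, Gpx1, Txnrd1 and Selenof) were higher at day 6 in both genotypes, as were 44.2% of genes, and 2 (Selenow and Msrb1) were lower, as were 36.6%. The median difference of the members was 0.16 in fl/fl organoids, against 0 over all genes, and 0.23 in wt/wt organoids, against 0.17 over all genes. Under the 7 alternative settings listed with the processing, these medians ran from -0.08 to 0.62 in fl/fl and from 0.07 to 0.70 in wt/wt organoids. The lowest fl/fl value came after quantile normalization and the highest in both without x_at and s_at probe sets. That last setting left 9 members, because Selenow fell below the filter, and read Gpx4 by its other probe set. Medians of gene lists below are followed by their range over the same settings. These counts are small and close to the shares over all genes, and read as no result about the group as a whole.

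Selenop, read by the probe set 1452141_a_at, read 3336 in fl/fl and 1980 in wt/wt organoids at day 6, against 166 in fl/fl and 263 in wt/wt organoids at day 4. Both day 6 arrays lay above both day 4 arrays, and the fl/fl arrays held both the highest and the lowest reading. The intensity ratio of day 6 to day 4 was 20.1 in fl/fl and 7.53 in wt/wt organoids. On the log2 scale the differences were 4.20 and 2.84, and their mean of 3.52 ranked 3 among all genes above the filter.

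Selenof encodes a selenoprotein of the endoplasmic reticulum that binds the glycoprotein folding sensor UGGT. Its probe set 1448903_at read 458 in fl/fl and 387 in wt/wt organoids at day 6, against 144 in fl/fl and 76.3 in wt/wt organoids at day 4. All readings at day 6 were above those at day 4, and fl/fl was the higher genotype on both days. The day differences were 1.57 in fl/fl and 2.13 in wt/wt organoids. The other Selenof probe set, 1454525_at, lay below the filter on every array, between 5.35 and 8.35, and is too dim to read a difference from.

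Among the glutathione peroxidases, Gpx1, the widespread cytosolic enzyme, was the one with the same day difference in both genotypes. Its probe set 1460671_at read 2002 in fl/fl and 1647 in wt/wt organoids at day 6, against 1224 in fl/fl and 1007 in wt/wt organoids at day 4. The order was day 6 above day 4 and, within each day, fl/fl above wt/wt. The day differences were 0.70 in both genotypes, short of 2-fold. After quantile normalization they were 0.44 in fl/fl and 0.32 in wt/wt organoids.

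Gpx2 was bright on every array and changed little with the day. Its probe set 1449279_at read 3262 in fl/fl and 2800 in wt/wt organoids at day 6, against 3337 in fl/fl and 2090 in wt/wt organoids at day 4. The wt/wt array at day 4 was the lowest and the other 3 lay close together. The day difference was -0.03 in fl/fl and 0.42 in wt/wt organoids. Gpx2 is known from the crypt base, and 6 crypt base stem cell markers had a day median of 0.97 in fl/fl (0.34 to 1.02) and 2.06 in wt/wt organoids (0.86 to 2.14). Of these 6 markers, 3 were 2-fold higher at day 6 in both genotypes, where 9.37% of genes were. Sox9 went the other way, by -0.37 in fl/fl and -0.06 in wt/wt organoids. The part of these markers in the Gpx2 values was not tested.

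Gpx3, the secreted peroxidase of blood plasma that is made mainly in the kidney, was close to the filter. Its probe set 1449106_at read 22.2 in fl/fl and 20.2 in wt/wt organoids at day 6, against 34.5 in fl/fl and 19.2 in wt/wt organoids at day 4. Only the fl/fl array at day 4 stood above the others. The day differences were -0.40 in fl/fl and 0.04 in wt/wt organoids.

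Gpx4, which reduces phospholipid hydroperoxides inside membranes and so protects cells from ferroptosis, gave different answers on its probe sets. The brighter, 1456193_x_at, read 1149 in fl/fl and 795 in wt/wt organoids at day 6, against 1050 in fl/fl and 1172 in wt/wt organoids at day 4. The days overlapped on it, and the differences were 0.13 in fl/fl and -0.55 in wt/wt organoids. The other, 1451695_a_at, read 943 and 530 at day 6, against 447 and 308 at day 4, in the same order of genotypes. On this probe set both day 6 arrays lay above both day 4 arrays, with differences of 1.05 and 0.75. Probe sets of the x_at kind can bind several transcripts, so the direction of Gpx4 between the days is uncertain.

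The thioredoxin reductases gave no clear day difference. Txnrd1, the cytosolic reductase, had opposite directions on its probe sets. The brightest, 1421529_a_at, read 343 in fl/fl and 345 in wt/wt organoids at day 6, against 217 in fl/fl and 139 in wt/wt organoids at day 4, which is a difference of 0.62 in fl/fl and 1.22 in wt/wt organoids. On it both day 6 arrays were above both day 4 arrays. Probe set 1424486_a_at read 46.3 and 28.7 at day 6, against 110 and 121 at day 4, and was 2-fold lower at day 6 in both genotypes, by -1.02 and -1.61. Probe set 1424487_x_at also read lower at day 6, by -0.40 and -0.85. The mean of the probe sets gave -0.26 in fl/fl and -0.41 in wt/wt organoids, so no direction can be given for the gene as a whole. Which transcripts these probe sets match is not given in the sources used here.

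Txnrd2, the mitochondrial reductase, was level. Its brightest probe set, 1449097_at, read 87.6 in fl/fl and 79.4 in wt/wt organoids at day 6, against 74.7 in fl/fl and 82.6 in wt/wt organoids at day 4. The days overlapped, and the differences were 0.19 in fl/fl and -0.05 in wt/wt organoids. The other 3 probe sets of the gene read between 15.9 and 24.0 on all arrays.

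Selenow, a small thioredoxin-like selenoprotein, was the member with the lowest day difference. Its probe set 1460561_x_at read 921 in fl/fl and 940 in wt/wt organoids at day 6, against 1611 in fl/fl and 2302 in wt/wt organoids at day 4. Both day 6 arrays were below both day 4 arrays. The differences were -0.80 in fl/fl and -1.28 in wt/wt organoids. The other probe set, 1416521_at, lay below the filter on average, between 8.65 and 16.7, with differences of 0.10 and -0.16, and the lower level at day 6 therefore rests on a probe set of the x_at kind.

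Msrb1, which reduces the R form of oxidised methionine, read 61.8 in fl/fl and 62.1 in wt/wt organoids at day 6, against 83.3 in fl/fl and 67.8 in wt/wt organoids at day 4 on its only probe set, 1418888_a_at. Both day 6 arrays were slightly below both day 4 arrays. The differences were -0.35 and -0.10.

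**Figure D2:**
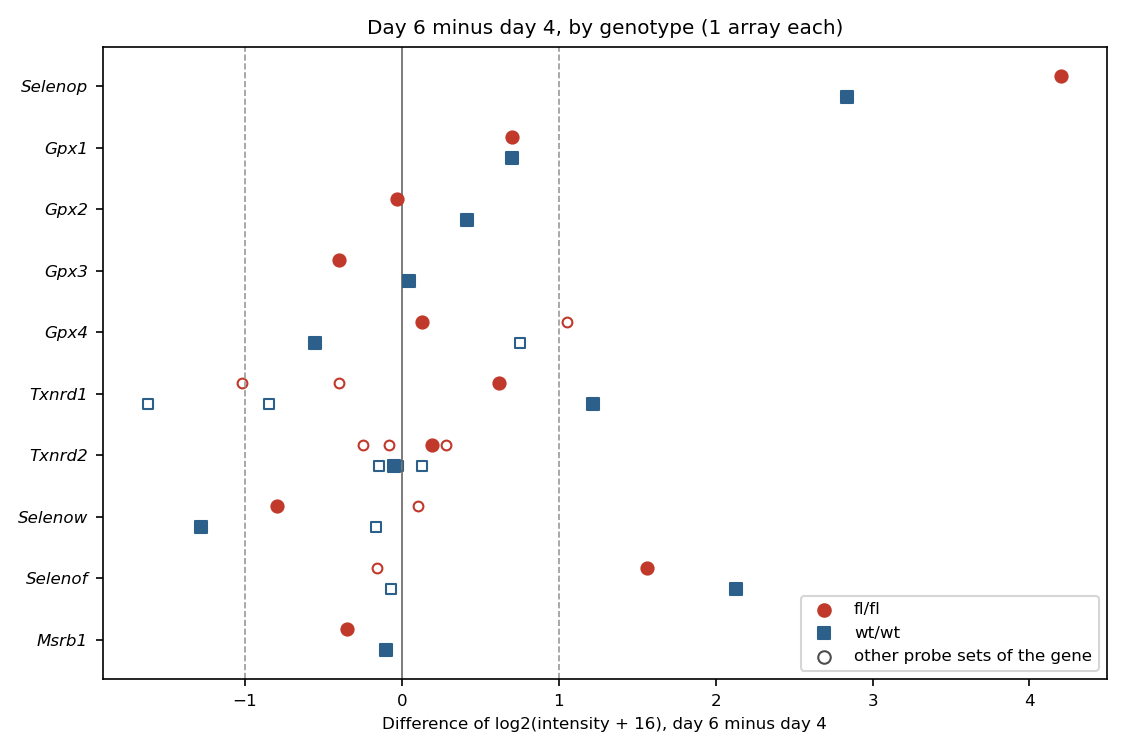
Difference of log2(intensity + 16), day 6 minus day 4, for each member probe set in fl/fl (red circles) and wt/wt organoids (blue squares), with open symbols for probe sets other than the brightest and dashed lines at 2-fold. Selenop lies at 4.20 and 2.84, and the open symbols of Txnrd1 lie on the other side of 0 from its filled ones.

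Setting fl/fl against wt/wt organoids within a day asks what differed where Tacc3 was floxed. No member reached 2-fold in either direction on either day. Over all genes at day 6, 0.211% were 2-fold higher and 0.571% 2-fold lower in fl/fl organoids. The shares at day 4 were 1.38% higher and 0.105% lower. The members' median was 0.17 at day 6 (0.15 to 0.22), against 0.05 over all genes, and 0.26 at day 4 (0.10 to 0.51), against 0.15 over all genes. The lowest day 4 value came after quantile normalization and the highest without x_at and s_at probe sets. Gpx1, Gpx2, Gpx3 and Selenof were higher in fl/fl organoids on both days, as were 38% of genes, and Selenow was lower on both, as were 14.5%. These counts are of sign only, whatever the size.

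Selenop differed between genotypes in opposite directions on the 2 days. It was higher in fl/fl organoids at day 6 by 0.75 (3336 against 1980) and lower at day 4 by -0.62 (166 against 263). The genotype difference was thus 1.37 larger at day 6 than at day 4. Without replicates this change was not tested.

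Selenof differed most at day 4, by 0.80, with 0.23 at day 6. Gpx2 likewise differed by 0.67 at day 4 and 0.22 at day 6, Txnrd1 by 0.59 and -0.01 on its brightest probe set, and Gpx3 by 0.52 and 0.08. For Gpx1 the genotype difference was 0.28 on both days, but 0.25 at day 6 and 0.13 at day 4 after quantile normalization. Both Gpx4 probe sets read higher in fl/fl than in wt/wt organoids at day 6, by 0.52 and 0.81, and at day 4 they differed by -0.16 and 0.51. Selenow was lower at day 4 by -0.51, with -0.03 at day 6. Txnrd2 differed by 0.12 and -0.12, and Msrb1 by -0.01 and 0.24, at day 6 and day 4.

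**Figure D3:**
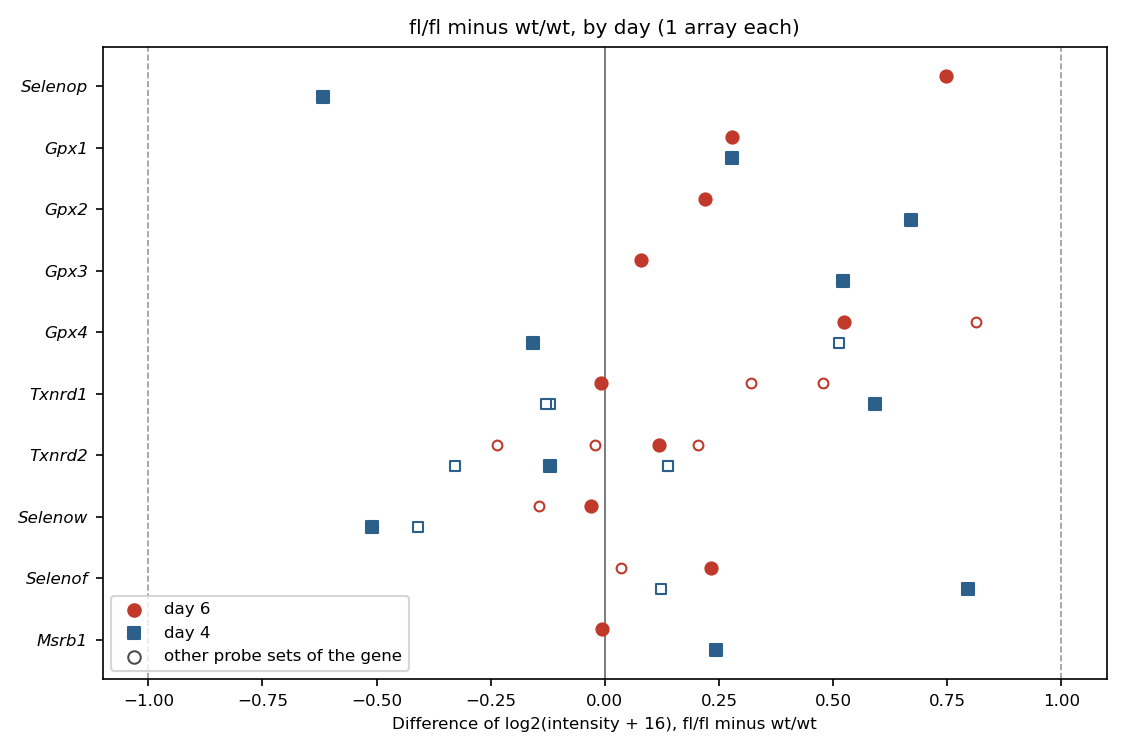
Difference of log2(intensity + 16), fl/fl minus wt/wt, for each member probe set at day 6 (red circles) and day 4 (blue squares), with open symbols for probe sets other than the brightest and dashed lines at 2-fold. All symbols lie inside the dashed lines, and Selenop lies at 0.75 at day 6 and at -0.62 at day 4.

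Markers of the cell types that make up the organoids moved with the day as well. The summed intensity of 10 measured enterocyte markers was 10860 in fl/fl and 7264 in wt/wt organoids at day 6, against 2291 in fl/fl and 1887 in wt/wt organoids at day 4. Their median genotype difference was 0.69 at day 6 (0.42 to 0.75) and 0.06 at day 4 (0.02 to 0.11), where that of Selenop was 0.75 and -0.62. The fatty acid binding protein gene Fabp2 was higher at day 6 by 3.40 in fl/fl and 2.44 in wt/wt organoids, and the sugar transporter gene Slc5a1 by 2.76 and 1.97. In bulk samples, fewer cells of a type and less RNA per cell cannot be told apart, and the part of the enterocyte markers in the Selenop values was not tested. Macrophages and fibroblasts also make Selenop, and the part of such cells in its values was not tested. Of 7 mesenchymal markers 3 passed the filter, and their list summed to 102 and 99.6 at day 6, against 152 and 167 at day 4, in fl/fl and wt/wt organoids. Between genotypes, these 3 had no common direction. Vim differed by 0.47 at day 6 and 0.29 at day 4, Acta2 by -0.18 and -0.03, and Des by 0.04 and -0.14. Of 6 macrophage and leukocyte markers 2 passed the filter, with sums of 78.9 and 75.7 at day 6, against 101 and 110 at day 4. The collagen genes Col1a1, Col1a2 and Col3a1 and the leukocyte genes Ptprc and Adgre1 were below the filter, as were all 4 endothelial markers, which summed to 39.9 and 35.4 at day 6, against 52.2 and 57.7 at day 4.

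The genes whose pattern over the 4 arrays was nearest to that of Selenop, by the root mean square distance of log2 values centred on each gene's mean, were Oat (0.17), Mgst1 (0.19), Cyp2c65 (0.24), Scin (0.27) and Slc6a20a (0.29). Oat, which encodes ornithine aminotransferase, read 3424 in fl/fl and 2270 in wt/wt organoids at day 6, against 230 in fl/fl and 367 in wt/wt organoids at day 4. Mgst1, a microsomal glutathione transferase with peroxidase activity, read 1834 and 1535 at day 6, against 119 and 183 at day 4. In all 5 genes, as in Selenop, the day 4 array of fl/fl organoids was the lowest and the day 6 array of fl/fl organoids the highest. The genes were chosen for nearness to Selenop on these arrays, so a shared order largely follows from the choice. For Gpx2 the nearest genes were Sp1 (0.02), Efcab14 (0.02), Igsf23 (0.03), Hsph1 (0.03) and Gpatch2l (0.03).

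**Figure D4:**
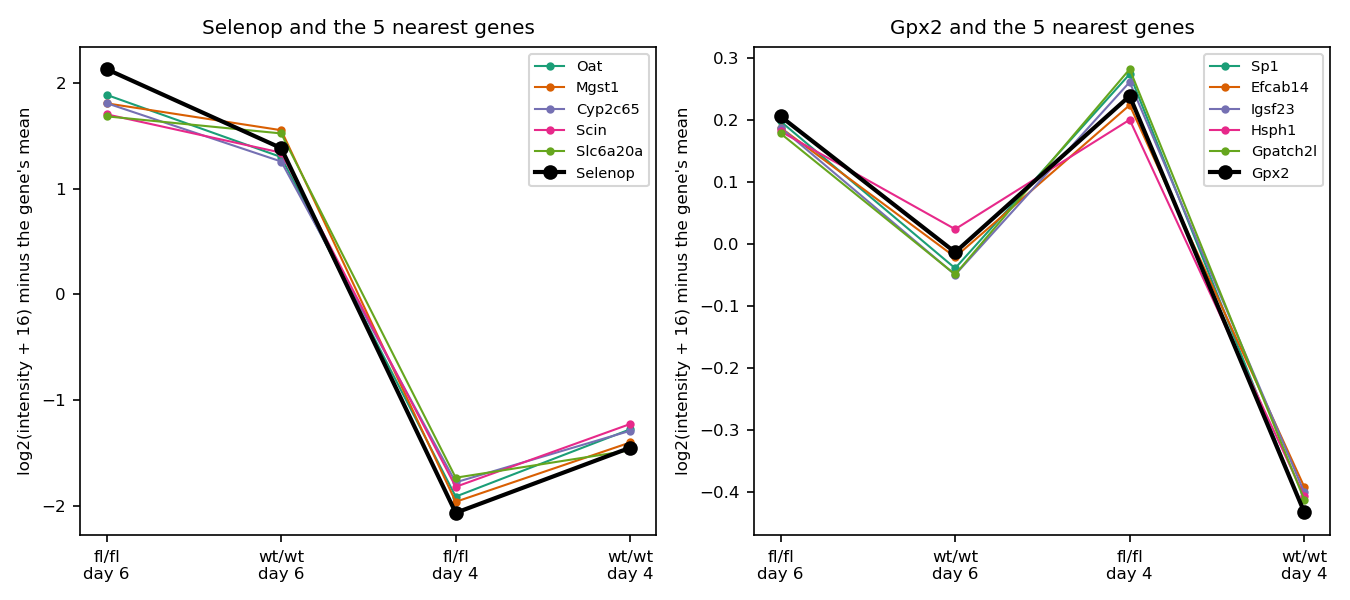
Level of Selenop (left) and Gpx2 (right) in black and of the 5 genes nearest to each in colour, as log2(intensity + 16) minus the gene's own mean, on the 4 arrays. The left panel spans about 4 log2 units between the days, and the right panel shows one low array, wt/wt at day 4.

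The remaining selenoproteins had no common direction between the days. Of 14 listed, 11 passed the filter. In fl/fl organoids 2 of these were 2-fold higher at day 6 (12.2% of all genes) and 1 lower (2.9%). In wt/wt organoids 1 was higher (18.3% of all genes) and 0 lower (2.97%). The median of the 11 was -0.25 in fl/fl (-0.33 to 0.08) and 0.30 in wt/wt organoids (-0.15 to 0.42), so neither sign held under every setting. Selenoh, a nucleolar redox protein, was higher at day 6 by 1.40 in fl/fl and 0.87 in wt/wt organoids. The selenoproteins of the endoplasmic reticulum membrane Selenok and Selenot were higher by 1.10 and 0.78 and by 0.90 and 1.12. Selenom, another protein of that compartment, was lower by -1.27 and -0.53, with 219 and 256 at day 6 against 553 and 378 at day 4 in fl/fl and wt/wt organoids. No gene of this list was 2-fold apart between genotypes on either day.

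All 8 genes listed for the making, insertion and breakdown of selenocysteine were above the filter, which covers this list and not the whole machinery. Of the 8, 1 was 2-fold higher at day 6 in fl/fl (12.2% of all genes) and 2 in wt/wt organoids (18.3%), and none was lower. The medians were 0.18 (-0.01 to 0.42) and 0.39 (0.05 to 0.66). Secisbp2l, a relative of the factor that binds the selenocysteine insertion element, was higher by 1.20 in fl/fl and 1.27 in wt/wt organoids. Sepsecs, the enzyme that completes selenocysteine on its transfer RNA, was higher by 0.83 and 1.74, and Pstk, the kinase of the step before it, by 0.56 and 0.60. Scly, which releases selenium from selenocysteine, was lower by -0.81 and -0.61. Of the Selenop receptors, Lrp8 passed the filter at 33.4 and 29.2 at day 6, against 31.5 and 30.5 at day 4, in fl/fl and wt/wt organoids, and Lrp2 did not. None of the 4 glutathione peroxidases with cysteine in place of selenocysteine, Gpx5, Gpx6, Gpx7 and Gpx8, passed the filter.

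Several thioredoxin and peroxiredoxin genes were higher at day 6. Of 11 thioredoxin, glutaredoxin and methionine sulfoxide reductase genes 8 passed the filter, and the same 4 were 2-fold higher in both genotypes, where 9.37% of all genes were; the medians were 0.88 in fl/fl (0.13 to 0.99) and 0.61 in wt/wt organoids (0.14 to 0.71). Txn1, the cytosolic thioredoxin that Txnrd1 reduces, read 5225 and 3975 at day 6, against 1488 and 1167 at day 4, which is a difference of 1.80 in fl/fl and 1.75 in wt/wt organoids. Its inhibitor Txnip was higher by 1.53 and 1.69, the glutaredoxin Glrx by 1.96 and 1.64, and Msra, which reduces the other form of oxidised methionine, by 1.31 and 1.04. Of 7 peroxiredoxin genes and their repair enzyme 4 were measured and passed. In each genotype 2 were 2-fold higher, where 12.2% of all genes were in fl/fl and 18.3% in wt/wt organoids. The medians were 1.13 (0.82 to 1.18) and 1.10 (0.79 to 1.26). Prdx4, the peroxiredoxin of the endoplasmic reticulum, was higher by 2.01 and 1.87, the mitochondrial Prdx3 by 1.52 and 1.26, Prdx2 by 0.73 and 0.86 and the repair enzyme gene Srxn1 by 0.43 and 0.95.

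Glutathione synthesis and recycling showed a mixed picture. Of 11 listed genes 9 passed the filter, and 2 were 2-fold higher at day 6 in each genotype, where 12.2% of all genes were in fl/fl and 18.3% in wt/wt organoids. None was 2-fold lower, and the medians were 0.32 in fl/fl (0.09 to 0.37) and 0.61 in wt/wt organoids (0.15 to 0.69), lowest after quantile normalization. Gsr, the reductase that regenerates glutathione for the peroxidases, was higher by 1.97 in fl/fl and 1.80 in wt/wt organoids. Chac2 was higher by 1.10 and 0.97 and Chac1 lower by -0.71 and -0.85; both encode enzymes that break glutathione down. Slc3a2, a subunit of the cystine transporter, was higher by 0.32 and 1.55, and was the only gene of the list 2-fold higher in fl/fl organoids at day 4, by 1.20. Among the 4 superoxide dismutase and catalase genes, all above the filter, the mitochondrial Sod2 was higher at day 6 by 1.59 and 1.53 and Cat by 0.70 and 1.73. At day 6 Cat read 352 in fl/fl against 694 in wt/wt organoids, a difference of -0.95. Sod1 differed by -0.31 and 0.02 between the days, and Sod3 by -0.17 and -0.82.

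**Figure D5:**
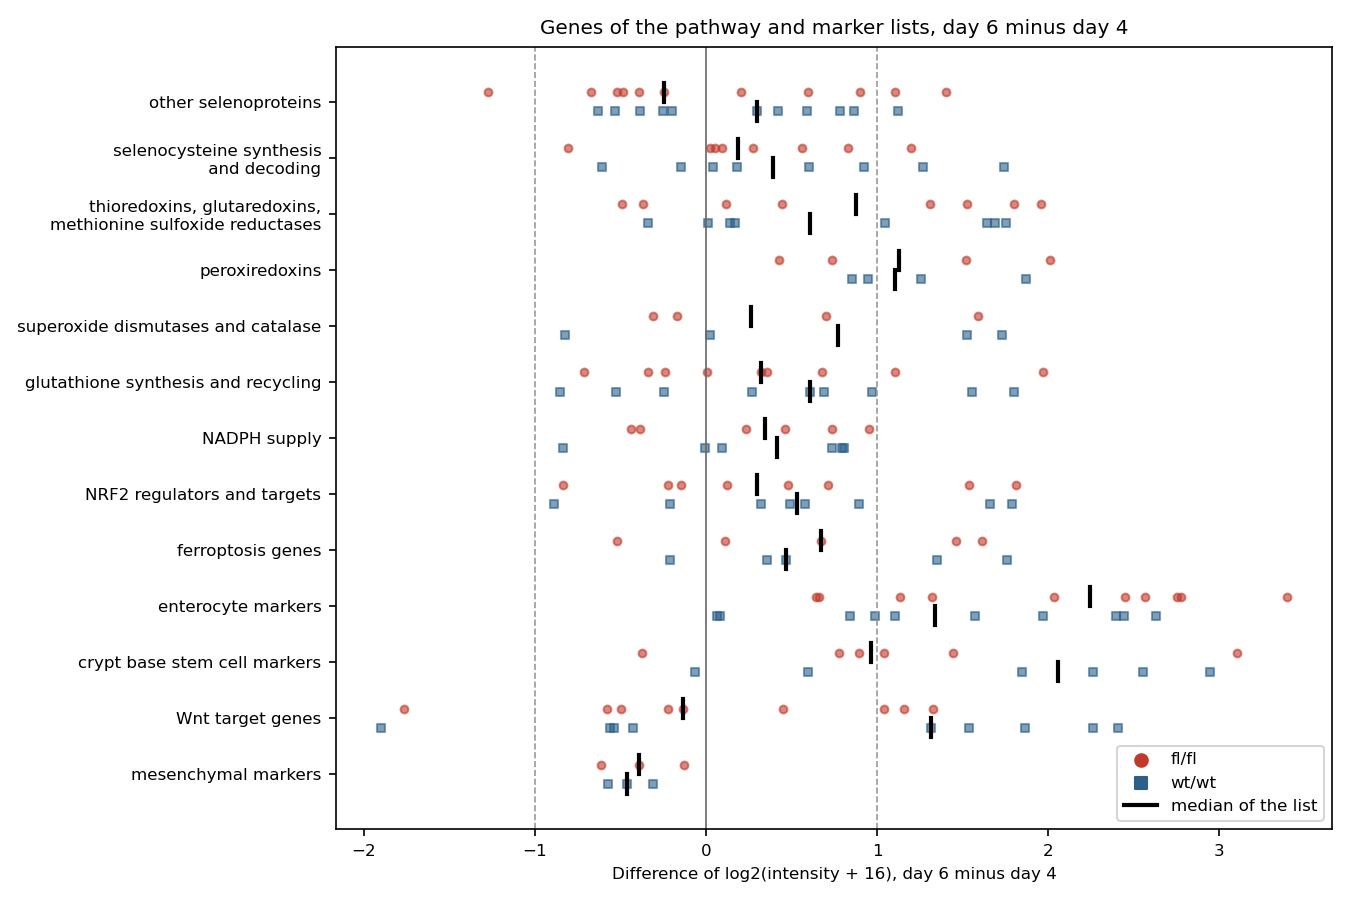
Difference of log2(intensity + 16), day 6 minus day 4, for every gene above the filter in each list with at least 3 such genes, in fl/fl (red circles) and wt/wt organoids (blue squares), with black bars at the median and dashed lines at 2-fold. The enterocyte medians lie at 2.24 and 1.34 and the peroxiredoxin medians at 1.13 and 1.10, while the other selenoproteins lie on both sides of 0.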

How the data were processed

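The 4 Affymetrix arrays, 1 per Tacc3 genotype and day, were grouped by title. The authors deposited a linear intensity for 45101 probe sets on each array, as judged from the values; how these were summarised, background-corrected and normalized is not given in the sources used here. Per the labels' protocols, biotinylated cRNA was made from column-purified total RNA by in vitro transcription from the 3' end. The number of arrays limits the precision.

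From the intensities, log2(intensity + 16) was computed with no further scaling (Python 3.11.15, pandas 2.3.3). The platform table gave 1 symbol for 34958 probe sets, several for 932 and none for 9211; symbols were updated by Entrez ID for 34754 with RefSeq GRCm38.p6. Each gene took its probe set with the highest mean, and 11392 of 18193 genes reached the median of all probe sets. Differences of at least 2-fold were counted, with no p-value. The code was tested on simulated data. Named genes are the members, up to 4 genes per list by mean day difference, and the 5 genes nearest to Selenop and Gpx2; other genes named from a list (those below the filter) are named without that rule. The members and lists were chosen with earlier results of these data known. Alternatives were other pseudocounts, median centring, quantile normalization, the mean of probe sets, no x_at and s_at probe sets, and no filter. RefSeq promoters were matched by symbol for all 10 members.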

Additional observations from a re-analysis of the deposited data

Results flagged for a closer look

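The genotype difference of Selenop was opposite on the 2 days: 0.75 on the log2 scale at day 6, where fl/fl organoids read higher, and -0.62 at day 4, where they read lower. It was flagged because its size was over 0.5 in both directions, with 1 array per group, and the change between the days was not tested. No other member met this rule. The rule was applied to the members only, so its share over all genes is not known. Oat, the gene nearest to Selenop in pattern, also differed by more than 0.5 in both directions, by 0.59 at day 6 and -0.64 at day 4.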

How the results depend on the processing

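No paired analysis was possible because each group holds 1 array. The 8 counts of members were recomputed under 7 alternatives, and 52 of the 56 values stayed within 1.5 times their main value. Dropping the filter could not change them, because all 10 members pass it, and the genotype counts were 0 in every setting. All 4 values that moved were counts of day differences. The count 2-fold lower at day 6 in fl/fl organoids became 1 after quantile normalization, against 0. In wt/wt organoids it became 0, against 1, with the mean of probe sets and without x_at and s_at probe sets, where Selenow fell below the filter. The count 2-fold higher at day 6 in fl/fl organoids became 1, against 2, with the mean of probe sets, which includes a Selenof probe set below the filter. The Txnrd1 difference in wt/wt organoids turned to -0.41 with the mean of probe sets, since its probe sets disagree. Quantile normalization moved the median day difference of all genes to -0.12 in fl/fl organoids, against 0, and to -0.13 in wt/wt organoids, against 0.17, and the shares 2-fold higher and lower in wt/wt organoids to 10.4% and 9.70%, against 18.3% and 2.97%. It moved the median genotype difference at day 4 to 0.01, against 0.15. Txnrd1 in wt/wt organoids was then 0.75 and Selenow in fl/fl organoids -1.09. Selenop kept its directions under every scaling, with day differences of 3.98 in fl/fl and 2.37 in wt/wt organoids and genotype differences of 0.75 at day 6 and -0.86 at day 4 after quantile normalization. The day 6 difference of Gpx4 in fl/fl organoids was 1.05 without x_at and s_at probe sets. Probe sets near the filter, such as that of Gpx3, leave little room for a 2-fold fall.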

Other observations

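A few genes of the NRF2 response, Nfe2l2 and Gsta3, and of ferroptosis, Tfrc and Lpcat3, were 2-fold higher at day 6 in both genotypes. Of 10 NRF2 regulators and targets 8 passed the filter, and 2 were 2-fold higher at day 6 in each genotype, where 12.2% of all genes were in fl/fl and 18.3% in wt/wt organoids. The medians were 0.30 in fl/fl (0.11 to 0.37 over the alternative settings) and 0.53 in wt/wt organoids (0.14 to 0.67). Nfe2l2, which encodes NRF2, the transcription factor of the antioxidant response, read 625 and 449 at day 6, against 167 and 131 at day 4, higher by 1.81 in fl/fl and 1.66 in wt/wt organoids. Keap1, its inhibitor, was lower by -0.83 and -0.89, short of 2-fold. The glutathione transferase Gsta3 was higher by 1.54 and 1.79 and the ferritin heavy chain Fth1 by 0.71 and 0.89.

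Of 7 ferroptosis genes 5 passed the filter, and 2 were 2-fold higher at day 6 in each genotype (12.2% of all genes in fl/fl and 18.3% in wt/wt organoids). The medians were 0.67 in fl/fl (0.11 to 0.84) and 0.47 in wt/wt organoids (0.18 to 0.55). The transferrin receptor Tfrc was higher at day 6 by 1.61 in fl/fl and 1.76 in wt/wt organoids and Lpcat3, which places polyunsaturated fatty acids in phospholipids, by 1.46 and 1.35, while Aifm2, a quinone reductase that protects from ferroptosis, differed by -0.52 and -0.21 and Gch1 by 0.67 and 0.36. Genes that supply NADPH, of which 6 of 7 passed, held no 2-fold difference in any comparison, with day medians of 0.35 in fl/fl (0.03 to 0.46) and 0.42 in wt/wt organoids (0.11 to 0.71). Taldo1 differed by 0.95 and 0.81, Idh1 by 0.74 in both genotypes, Idh2 by 0.46 and 0.79 and Me1 by -0.44 and -0.84. Of 11 Wnt target genes 9 passed, with medians of -0.13 in fl/fl (-0.33 to -0.02) and 1.32 in wt/wt organoids (0.47 to 1.40): Myc was higher by 1.16 and 2.41, Axin2 by 1.04 and 2.26 and Znrf3 by 1.33 and 1.87, and Nkd1 lower by -1.76 and -1.90.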
